A study of Mus musculus with 25 samples.

Results

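Hras, Nras, Araf, Braf, Map2k1, Map2k2 and Mapk3 encode the Ras, Raf, Mek and Erk proteins of the mitogen-activated kinase cascade, and their RNA was examined in liver progenitor cells carrying oncogenic Ras and in tumours grown from them. The 7 genes were chosen by symbol and make up 7 of the 24984 genes of the count table. All 7 passed the filter on low counts in every comparison. Further genes of the pathway, related small GTPases among them, are given as counts of a list and by the few with the largest changes.

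The cells were bipotential mouse embryonic liver (BMEL) cells, a non-transformed progenitor line of the hepatocyte and bile duct lineages, grown on collagen. BMEL WT cells carried an empty vector, while RasLOW and RasHIGH cells carried a human H-Ras cDNA with the substitution G12V, an activating change, and were sorted by flow cytometry for low or high fluorescence of the reporter encoded on the same transcript. Each of these 3 groups had 3 cultures. The transduced parental cells were clonal, and the sorted populations were not separated into single clones, so their Ras levels can overlap. The other 16 libraries came from tumours of 4 athymic nude mice, hosts that lack mature T cells but retain natural killer cells and myeloid cells. From each mouse a liver tumour and a peritoneal tumour were dissociated and sorted into fluorescent tumour cells and non-fluorescent stroma, which gave 4 groups of 4 libraries. The labels do not say which Ras population was injected in these mice. The paper states that the sequenced tumour cells were positive for the reporter Venus. In its RTqPCR of sorted tumours, RasHIGH cells carried Venus and RasLOW cells mCherry, though each population was also made with either reporter. The age of the mice was not given in the sources used here.

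Total counts per library ran from 20818989 to 51241336, so that 3 counts, the limit that a count of 0 allows, corresponded to at most 0.143 CPM, the count of a gene scaled to a library of 1000000 counts. This limit covers counting error only. Of the listed progenitor markers, the keratins Krt8, Krt18 and Krt19 were higher in cultures and tumour cells than in stroma. Epcam, on the same list, was near 0 in cultures, with a mean of 0.326 CPM in BMEL WT and 0 in all RasLOW libraries. Its mean was 0.0669 CPM in liver and 0.0488 CPM in peritoneal tumour cells, lower than the 5.69 and 4.45 CPM in the stroma of these sites. The summed level of 5 progenitor markers was 6920 to 10800 CPM in cultures and tumour cells and 675 to 1550 CPM in stroma. The summed level of 5 leukocyte markers was 2380 to 4170 CPM in stroma and 15.1 to 99.3 CPM in tumour cells, all 5 being detected in both. Of 5 fibroblast markers, the sum was 37.3 to 57.9 CPM in liver tumour cells but 209 to 1430 CPM in peritoneal tumour cells, with the highest value in mouse 1.

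Ras proteins are small GTPases at the inner face of the plasma membrane that switch between a GDP-bound resting and a GTP-bound active state. Active Ras recruits Raf kinases, which phosphorylate the Mek kinases, and these in turn phosphorylate Erk, which acts on cytoplasmic and nuclear substrates. Changes at glycine 12 of Ras slow GTP hydrolysis and keep the protein active, and Erk induces several inhibitors of its own pathway.

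The codon that carries this change in the transgene is shown in the endogenous mouse Hras gene, since reads counted as Hras are those placed on this gene. Its first 45 coding bases are given 5′ to 3′ on the coding strand, with codon 12 in capitals, from the mm9 genome.
Hras (chr7:148378795-148378839, minus strand): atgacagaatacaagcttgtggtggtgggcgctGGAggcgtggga
The reference codon 12 is unchanged. Over the 570 coding bases of Hras and of Nras the identity was 75.1%, with no identical run longer than 23 bases. Araf and Braf shared 65.1% of their aligned coding bases, with runs of at most 17 identical bases. Map2k1 and Map2k2 were the most alike, with 78.3% identity and an identical run of 56 bases. Reads that fall within such a run cannot be given to either Mek gene by sequence alone.

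On mm9, Hras lies at chr7:148375004-148379904 and Mapk3 at chr7:133903115-133909333. Nras lies at chr3:102862152-102871837, Araf at chrX:20374940-20437645, Braf at chr6:39553236-39675462, Map2k1 at chr9:64033577-64101438 and Map2k2 at chr10:80568660-80587442. Outside its own locus, Nras alone among the 7 had stretches of at least 100 bases with at least 95% identity elsewhere in the genome, over 3.99% of its longest transcript. Braf shared 146 exonic bases with Ndufb2 on the opposite strand and Araf 9 bases with Syn1. The strand setting of the counting was not given, so reads in these bases are uncertain.

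The mean of reads placed on mouse Hras in culture was not higher where the sorted Ras level was higher. In BMEL WT the 3 libraries held 82.1, 86.6 and 71.1 CPM of Hras. In RasLOW they held 101, 46.7 and 86.1 CPM. In RasHIGH they held 50.0, 79.5 and 71.2 CPM. The 3 groups overlapped, and both the highest and the lowest value among them belonged to RasLOW. The mean was 79.9 ± 7.93 CPM in BMEL WT, 77.9 ± 28.0 in RasLOW and 66.9 ± 15.2 in RasHIGH (SD, n = 3 each), and the spread in RasLOW, 36% of its mean, was the widest of any member in any group.

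By edgeR's quasi-likelihood test, Hras differed from BMEL WT by a log2 fold change of -0.08 in RasLOW (SE 0.26, 95% interval -0.67 to 0.52, adjusted p = 0.91). In RasHIGH the log2 fold change was -0.29 by the same edgeR test (SE 0.2, 95% interval -0.75 to 0.17, adjusted p = 0.343). Between RasHIGH and RasLOW it was -0.21 (SE 0.31, 95% interval -0.94 to 0.52, edgeR adjusted p = 0.891). No difference was detected, but the intervals leave room for changes of about the size of the spread between cultures. Without RasLOW replicate 2, the culture with 46.7 CPM, the RasLOW change was 0.18 (edgeR adjusted p = 0.366), and without RasLOW replicate 1 the RasHIGH to RasLOW change was 0.01. The transgene is a human cDNA, the reads were aligned to the mouse genome and the rows name mouse genes. The values are therefore those of reads placed on mouse Hras, and what share of vector-derived reads was placed there was not tested. By RTqPCR and western blot the paper found more of the G12V oncogene in RasHIGH than in RasLOW cells. The values given here do not test that difference.

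Nras, the other Ras gene, was higher in the Ras cultures. BMEL WT libraries held 127, 156 and 142 CPM of Nras, against 209, 190 and 170 CPM in RasLOW. RasHIGH libraries held 197, 201 and 191 CPM. Every Ras culture lay above every BMEL WT culture, whereas RasLOW and RasHIGH overlapped. In RasHIGH, Nras rose by a log2 fold change of 0.43, 1.35-fold (SE 0.12, 95% interval 0.15 to 0.71, edgeR adjusted p = 0.0388). It was the only one of the 7 genes called at an adjusted p under 0.05 in RasHIGH against BMEL WT, where 22.6% of the 12331 genes tested were called and 10.9% were called as higher. The call was lost when sequencing lane was a term (0.42, SE 0.2, edgeR adjusted p = 0.342). With that term 545 of the 12331 genes were called, against 2789 without it. BMEL WT replicates 1 and 2 were in lane 3 and all other cultures in lane 4. The Nras call was also lost with the replicate number as a block (edgeR adjusted p = 0.0704), although these numbers mark no pairing of the cultures. Leaving out any single library other than RasHIGH replicate 1 lost it as well, with edgeR adjusted p = 0.0656 to 0.131. Those fits called 1517 to 2313 genes, against 3896 without RasHIGH replicate 1. In RasLOW the log2 fold change of Nras was 0.39 (SE 0.14, 95% interval 0.06 to 0.71, edgeR adjusted p = 0.16).

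**Figure D1:**
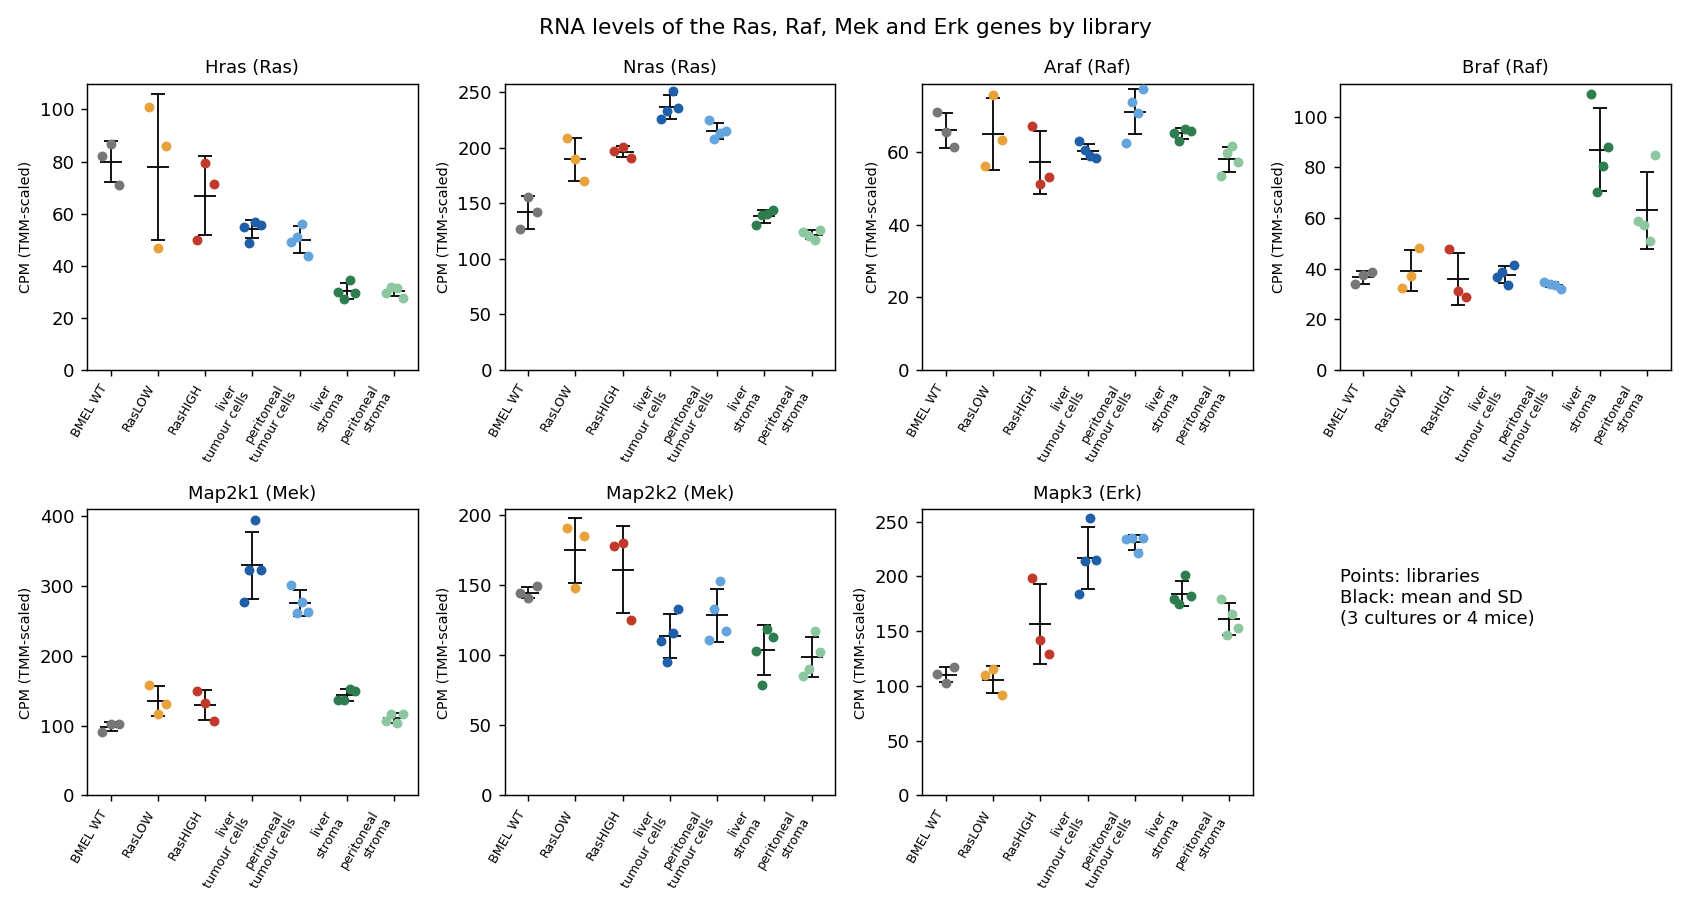
RNA level of each gene in CPM scaled by TMM factors (linear axis from 0), by group; points are libraries and black marks give the mean and SD over 3 cultures or 4 mice. Hras lies at 43.6 CPM or more in all cultures and tumour cells and at 34.6 CPM or less in stroma, and Map2k1 lies at 261 CPM or more in tumour cells and at 158 CPM or less everywhere else.

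Because both Ras genes are measured in the same library, their ratio does not depend on library scaling. The ratio of Hras to Nras counts was 0.499 to 0.644 in BMEL WT, 0.246 to 0.507 in RasLOW and 0.254 to 0.396 in RasHIGH. RasHIGH lay below BMEL WT in every library, with a mean of 0.341 ± 0.0762 against 0.567 ± 0.073 (SD, n = 3), whereas RasLOW overlapped both. In the 16 sorted libraries the ratio was 0.196 to 0.27, and tumour cells and stroma overlapped. These are ratios of counts that are not divided by transcript length, so they show changes between groups and not which gene is the more expressed.

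The Raf genes moved little with the transgene. Araf, the Raf kinase encoded on the X chromosome, held 70.9, 65.4 and 61.5 CPM in BMEL WT and 56.2, 75.8 and 63.2 CPM in RasLOW. In RasHIGH it held 67.1, 51.1 and 53.1 CPM, which overlapped BMEL WT through replicate 1. The log2 fold change of Araf was -0.05 in RasLOW (SE 0.16, edgeR adjusted p = 0.914) and -0.24 in RasHIGH (SE 0.14, edgeR adjusted p = 0.271). Without RasHIGH replicate 1 the latter was -0.36 and was called (edgeR adjusted p = 0.0406). That fit called 3896 of 12587 genes, against 2789 of 12331 with that library. Braf, the Raf kinase with the strongest activity towards Mek, held 33.7, 37.3 and 38.7 CPM in BMEL WT. It held 32.3, 37.2 and 48.0 CPM in RasLOW and 47.8, 31.3 and 28.9 CPM in RasHIGH, and all 3 groups overlapped. Its log2 fold change was 0.07 in RasLOW (95% interval -0.35 to 0.48) and -0.06 in RasHIGH (95% interval -0.54 to 0.41), with edgeR adjusted p = 0.882 and 0.862.

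Of the Mek genes, which encode the kinases that phosphorylate Erk, Map2k1 lay higher in all Ras cultures without passing the test. BMEL WT held 90.7, 102 and 102 CPM of Map2k1, RasLOW 158, 116 and 131 CPM, and RasHIGH 149, 132 and 107 CPM. Neither Ras group overlapped BMEL WT. The log2 fold change was 0.42 in RasLOW (SE 0.14, 95% interval 0.09 to 0.76, edgeR adjusted p = 0.138) and 0.36 in RasHIGH (SE 0.14, 95% interval 0.02 to 0.7, edgeR adjusted p = 0.122). Without RasLOW replicate 2 the RasLOW value was 0.51 and passed (edgeR adjusted p = 0.0333). Map2k2 held 144, 141 and 149 CPM in BMEL WT, 191, 148 and 185 CPM in RasLOW and 178, 180 and 125 CPM in RasHIGH, and the groups overlapped. Its log2 fold change was 0.24 in RasLOW (95% interval -0.07 to 0.55, edgeR adjusted p = 0.364) and 0.12 in RasHIGH (95% interval -0.26 to 0.5, edgeR adjusted p = 0.644).

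Mapk3, which encodes Erk1, was the only member without overlap between RasHIGH and RasLOW, as were 15.8% of all genes tested, and it was not called. It held 111, 103 and 117 CPM in BMEL WT and 110, 115 and 91.6 CPM in RasLOW. In RasHIGH it held 198, 142 and 129 CPM, above every library of the other cultures. The log2 fold change of RasHIGH against RasLOW was 0.56, 1.48-fold (SE 0.2, 95% interval 0.09 to 1.03, edgeR adjusted p = 0.396). Against BMEL WT it was 0.46 in RasHIGH (SE 0.17, 95% interval 0.05 to 0.86, edgeR adjusted p = 0.103) and -0.09 in RasLOW (SE 0.14, edgeR adjusted p = 0.771). The highest value, 198 CPM, was RasHIGH replicate 1, the culture that also held the lowest Hras and the highest Braf of its group.

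In RasLOW against BMEL WT, 0 of the 7 genes were called by edgeR's quasi-likelihood test, where 5.96% of all genes tested were called, and 2 members had an unadjusted p under 0.05. DESeq2 also called 0 members there, beside 1518 of 17826 genes. In RasHIGH against RasLOW 0 members were called by either tool and 1 member had an unadjusted p under 0.05 by edgeR. There edgeR called 0.0752% of genes and DESeq2 382 of 17384. Relative to BMEL WT the groups did not overlap for 2 members in RasLOW and for 3 in RasHIGH, beside 28.5% and 42.9% of all genes tested. Between the Ras populations they did not overlap for 1 member, beside 15.8% of genes. The members' median absolute log2 fold change was 0.09, 0.29 and 0.12 in these comparisons, and that of all genes was 0.26, 0.34 and 0.22. The comparisons share the BMEL WT cultures or the Ras cultures, so their values are not independent.

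**Figure D2:**
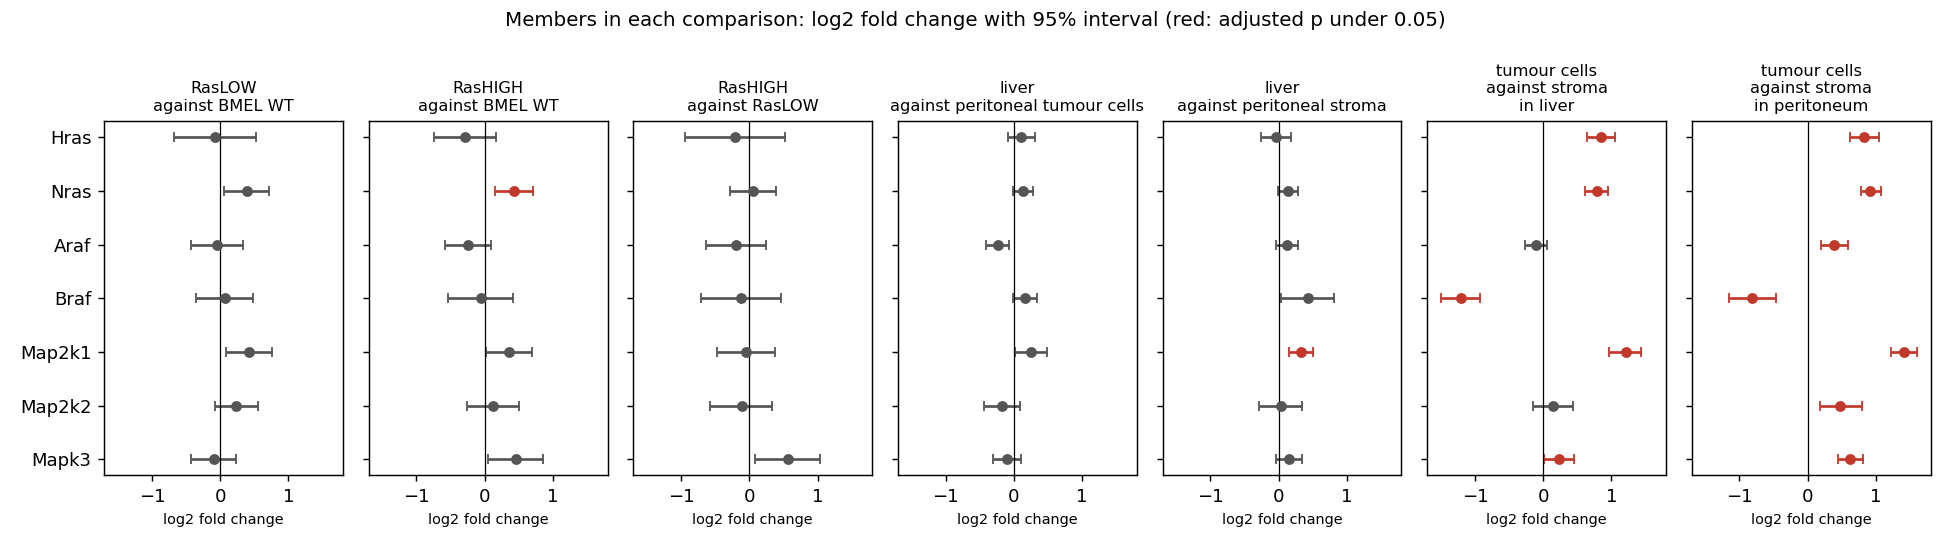
Log2 fold change of each gene (x axis, group minus reference) in the 7 comparisons, with 95% intervals from edgeR's quasi-likelihood fit; red marks genes called at an adjusted p under 0.05. In the cell line comparisons only Nras in RasHIGH is called, and in tumour cells against stroma Braf is the only gene called as lower at either site.

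The sorted tumour cells allow the question whether the cascade differs with the site at which the cells grew. Hras held 54.7, 48.8, 56.8 and 55.6 CPM in liver tumour cells and 49.0, 51.0, 56.0 and 43.6 CPM in peritoneal tumour cells. The sites overlapped, and the log2 fold change of liver against peritoneum was 0.11 (SE 0.09, 95% interval -0.09 to 0.31, edgeR adjusted p = 0.532). These too are reads placed on mouse Hras. For the G12V oncogene itself, the paper reported a higher level by RTqPCR in liver than in peritoneal tumour cells. Nras held 226, 233, 251 and 236 CPM in the liver and 225, 208, 213 and 215 CPM in the peritoneum. The sites did not overlap for Nras, by a margin of 1 library pair at 226 and 225 CPM, and the log2 fold change was 0.13 (SE 0.07, 95% interval -0.02 to 0.28, edgeR adjusted p = 0.3).

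Of the other members, Map2k1 and Araf had the larger differences between sites, and neither passed the test. Map2k1 held 277, 323, 394 and 322 CPM in liver tumour cells and 301, 261, 276 and 263 CPM in peritoneal tumour cells (log2 fold change 0.25, SE 0.11, edgeR adjusted p = 0.214). Araf held 63, 60.6, 58.9 and 58.4 CPM in the liver and 62.6, 73.8, 70.7 and 77.3 CPM in the peritoneum (log2 fold change -0.24, SE 0.08, edgeR adjusted p = 0.124). Braf, Map2k2 and Mapk3 had log2 fold changes of 0.16, -0.18 and -0.1, with edgeR adjusted p = 0.312, 0.451 and 0.601. Thus 0 of 7 members were called by edgeR, where 3.2% of all genes tested were called, and 2 (Araf and Map2k1) had an unadjusted p under 0.05. DESeq2 called 0 members, beside 1119 of 18804 genes. Nras was the 1 member without overlap between the sites, beside 11.9% of all genes. The peritoneal tumour cells of mouse 1 held the highest fibroblast and leukocyte marker sums, 1430 and 99.3 CPM, and leaving that library out called no member.

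In stroma, Map2k1 rose in the liver. It held 137, 136, 152 and 149 CPM in liver stroma and 106, 117, 103 and 117 CPM in peritoneal stroma, with no overlap. The log2 fold change was 0.33, 1.26-fold (SE 0.08, 95% interval 0.15 to 0.51, edgeR adjusted p = 0.0105), and it was called under all 15 alternatives. It was the 1 member called, where 33.4% of genes were called and 14.9% were called as higher. Nras and Araf also did not overlap between the sites, as did 34.6% of all genes, with log2 fold changes of 0.14 and 0.13 (edgeR adjusted p = 0.139 and 0.197). Braf held 109, 70.3, 80.7 and 87.9 CPM in liver stroma and 58.9, 57.1, 50.9 and 85.0 CPM in peritoneal stroma (log2 fold change 0.43, SE 0.17, edgeR adjusted p = 0.0897). Without the peritoneal stroma of mouse 4 the Braf value was 0.58 and passed (edgeR adjusted p = 0.0157). That fit called 4773 of 14998 genes, against 4925 of 14755 with that library. Hras was at the same level at both sites, with 29.7, 27.2, 34.6 and 29.4 CPM in the liver and 29.3, 31.7, 31.5 and 27.7 CPM in the peritoneum (log2 fold change -0.03, 95% interval -0.25 to 0.18, edgeR adjusted p = 0.817). Its sign turned with the scaling, to 0.08 with library size alone. Map2k2 and Mapk3 had log2 fold changes of 0.03 and 0.15 (edgeR adjusted p = 0.901 and 0.207). The fibroblast marker sum was 4090 to 8350 CPM in liver stroma and 53100 to 80900 CPM in peritoneal stroma. The leukocyte marker sum was higher in liver stroma, at 3610 to 4170 CPM against 2380 to 3190 CPM, and so was the hepatocyte marker sum, at 24.9 to 212 CPM against 0.476 to 1.83 CPM. The part of these cell types in the differences was not tested. In a mixture of cells, fewer cells of a type and less RNA per cell cannot be told apart.

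Between tumour cells and the stroma of the same tumours, both Ras genes rose in tumour cells at both sites. All 8 tumour cell libraries held more Hras (43.6 to 56.8 CPM) than any of the 8 stroma libraries (27.2 to 34.6 CPM). The log2 fold change of Hras was 0.85 in the liver, 1.8-fold (SE 0.09, edgeR adjusted p = 5.04e-06), and 0.83 in the peritoneum, 1.78-fold (SE 0.09, edgeR adjusted p = 5.38e-05). Nras held 208 to 251 CPM in tumour cells and 117 to 144 CPM in stroma (130, 139, 140 and 144 in the liver; 124, 120, 117 and 126 in the peritoneum). Its log2 fold change was 0.79 in the liver (SE 0.07, edgeR adjusted p = 1.27e-06) and 0.92 in the peritoneum (SE 0.06, edgeR adjusted p = 4.82e-06).

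Map2k1 had the largest increase of the 7 genes and Braf fell. Map2k1 was 329 ± 48.5 CPM in liver tumour cells and 143 ± 8.34 in liver stroma (SD, n = 4), a log2 fold change of 1.21 (2.31-fold, SE 0.11, edgeR adjusted p = 7.77e-07). In the peritoneum it was 275 ± 18.4 against 111 ± 7.48 CPM (SD, n = 4), a log2 fold change of 1.41 (2.66-fold, SE 0.08, edgeR adjusted p = 2.3e-06). Braf held 36.5, 38.6, 33.6 and 41.4 CPM in liver tumour cells and 34.5, 34.0, 33.6 and 32.1 CPM in peritoneal tumour cells, below every stroma library. Its log2 fold change was -1.20 in the liver (2.3-fold lower, SE 0.13, edgeR adjusted p = 4.21e-06) and -0.81 in the peritoneum (1.75-fold lower, SE 0.15, edgeR adjusted p = 0.00112). Tumour cells lay at the Braf level of the cultures, 28.9 to 48.0 CPM.

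Map2k2, Mapk3 and Araf differed less. Map2k2 held 110, 95.1, 116 and 133 CPM in liver tumour cells and 103, 78.6, 119 and 113 CPM in liver stroma, which overlapped (log2 fold change 0.15, SE 0.14, edgeR adjusted p = 0.334). In the peritoneum Map2k2 held 111, 133, 153 and 117 CPM in tumour cells and 85.1, 90.1, 117 and 102 CPM in stroma, and it rose by 0.48 (SE 0.13, edgeR adjusted p = 0.00976). Mapk3 held 184, 214, 253 and 215 CPM in liver tumour cells and 179, 175, 201 and 182 CPM in liver stroma. This difference of 0.24 was called (SE 0.1, edgeR adjusted p = 0.0442) but lost its call with DESeq2 (0.18, adjusted p = 0.174). It also lost it when any of liver tumour cells 2, 3 or 4 or liver stroma 1, 2 or 4 was left out, the value falling to 0.14 without liver tumour cells 3 (edgeR adjusted p = 0.176). In the peritoneum Mapk3 held 234, 235, 221 and 235 CPM in tumour cells and 179, 146, 166 and 153 CPM in stroma, and the rise was 0.62 (SE 0.08, edgeR adjusted p = 0.000126). Araf held 65.3, 63.1, 66.3 and 65.7 CPM in liver stroma, against which liver tumour cells had a log2 fold change of -0.10 (SE 0.07, edgeR adjusted p = 0.192). It was called as lower there by DESeq2 (-0.17, adjusted p = 0.0297). In peritoneal stroma Araf held 53.5, 59.7, 61.6 and 57.1 CPM, and in peritoneal tumour cells it rose by 0.39 (SE 0.08, edgeR adjusted p = 0.00225).

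In the liver 4 members were therefore called as higher in tumour cells and 1 as lower, where 77.8% of genes were called (38.4% higher and 39.4% lower). In the peritoneum 6 were called as higher and 1 as lower, where 76.6% of genes were called (39.5% higher and 37.1% lower). The groups did not overlap for 5 members in the liver and 6 in the peritoneum, beside 73% and 71.5% of all genes. The median absolute log2 fold change of the members, 0.79 and 0.81, was close to that of all genes, 0.83 and 0.84. The study's thresholds for sorted cells (a log2 change of more than 1 either way and p under 0.05, taken here as unadjusted) were passed by Braf and Map2k1 in the liver and by Map2k1 in the peritoneum, beside 44% and 43.7% of all genes; these members passed with adjusted p as well. By site, 0 members passed them in tumour cells and 0 in stroma, beside 3.52% and 14.3% of genes. Its stricter thresholds for cell lines were passed by 0 members in RasLOW or RasHIGH relative to BMEL WT and by 0 between the Ras populations, beside 4.4%, 9.65% and 2.12% of genes.

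**Figure D3:**
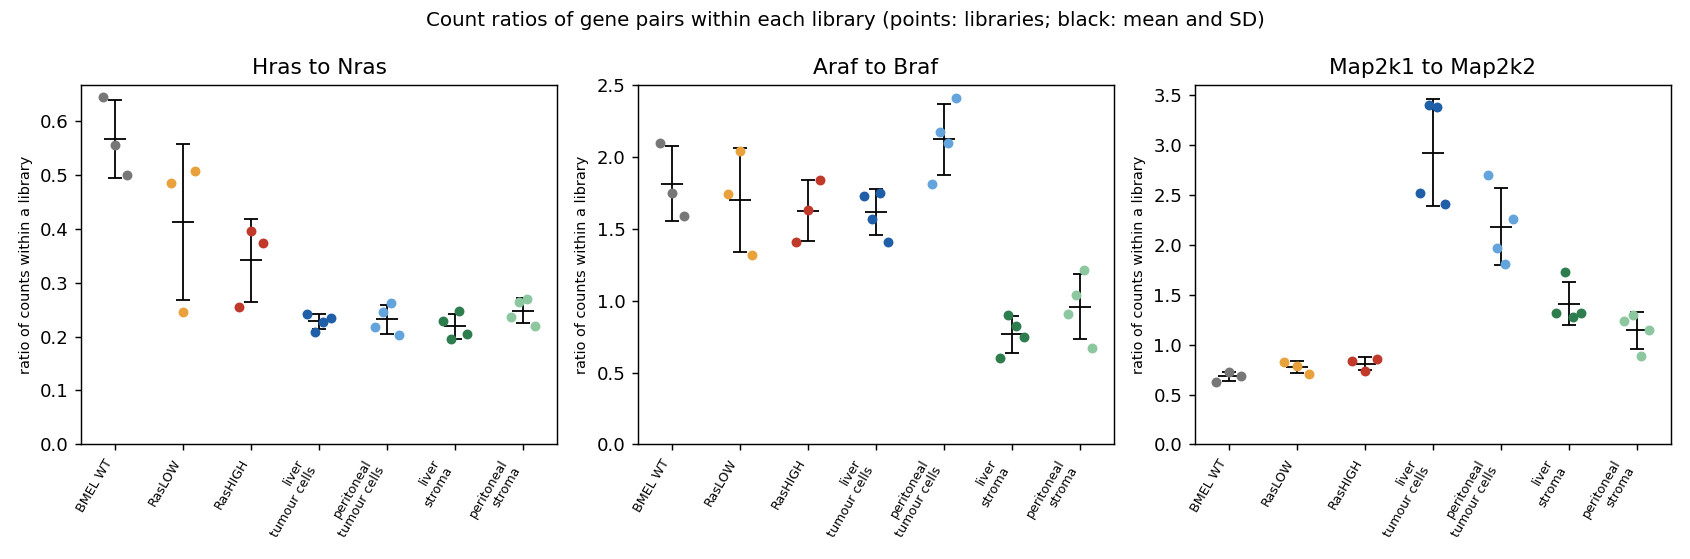
Ratio of the counts of gene pairs of the same step within each library (y axis, no unit, linear from 0), by group; points are libraries and black marks give the mean and SD over 3 cultures or 4 mice. The ratio of Map2k1 to Map2k2 is 0.631 to 0.859 in cultures and 1.81 to 3.4 in tumour cells, and that of Araf to Braf is at most 1.21 in all stroma libraries and at least 1.32 in all others.

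The count ratios within the Mek pair and within the Raf pair differed between groups. The ratio of Map2k1 to Map2k2 counts was 0.681 ± 0.0477 in BMEL WT, 0.773 ± 0.0596 in RasLOW and 0.81 ± 0.0667 in RasHIGH (SD, n = 3), and RasHIGH did not overlap BMEL WT. It was 2.93 ± 0.538 in liver tumour cells and 2.18 ± 0.393 in peritoneal tumour cells, and 1.41 ± 0.211 and 1.15 ± 0.184 in the stroma of these sites (SD, n = 4). Cultures, stroma and tumour cells thus formed 3 ranges of this ratio that did not overlap. The ratio of Araf to Braf was 1.32 to 2.41 in cultures and tumour cells and 0.598 to 1.21 in stroma.

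Map2k1 was also the member that separated tumour cells from the cultured Ras cells. The 6 RasLOW and RasHIGH libraries held 107 to 158 CPM and the 8 tumour cell libraries 261 to 394 CPM, a ratio of means of 2.28. It was the only one of the 7 genes without overlap between these groups, as were 25.5% of all genes. Mapk3 was at 1.71 times its culture mean in tumour cells, and Hras and Map2k2 were at 0.718 and 0.721 times theirs, all with overlap. Growth in the animal, dissociation, sorting and sequencing lane differ between these groups and cannot be told apart, and no test was made.

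Over the 7 groups the means of Map2k1 spanned the widest range, 3.35 times from BMEL WT to liver tumour cells, and those of Araf the narrowest, 1.25 times. Hras was ordered from BMEL WT (79.9 CPM) through RasLOW, RasHIGH, liver tumour cells and peritoneal tumour cells to liver and peritoneal stroma (30.2 and 30.1 CPM). In that order only peritoneal tumour cells and liver stroma, among neighbours, did not overlap. Nras was ordered from liver tumour cells (237 CPM) and peritoneal tumour cells through RasHIGH, RasLOW and BMEL WT to liver and peritoneal stroma (122 CPM), where RasHIGH overlapped RasLOW and BMEL WT overlapped liver stroma. Per transcript length, Braf was the lowest member in every group, at 3.45 to 8.94 RPKM (CPM per kilobase of transcript), against 24.2 to 30.1 RPKM for Araf. Mapk3 was at 120 to 171 RPKM in liver tumour cells, depending on whether its longest or shortest annotated transcript is used, and Map2k1 at 135 RPKM. For Hras, whose annotated transcripts run from 1199 to 2828 bases, the level in BMEL WT was 28.3 to 66.7 RPKM, a range that holds that of Nras, 32.1 to 46.8 RPKM.

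The genes whose log2 level followed Hras most closely over the 9 cultures were Rnpc3, Reps1, D8Ertd738e, Gspt1 and Cct8, each with Pearson's r = 0.98 among 11341 genes. Over all 25 libraries they were Cct4, Kpnb1 and Etaa1 (r = 0.98) and Gps1 and Acot7 (r = 0.97) among 13191 genes. Of the members, Map2k2 had the highest r with Hras over the 25 libraries, 0.78, followed by Nras at 0.48, and Braf had the lowest at -0.77. Over the 9 cultures alone, r with Hras was 0.19 for Map2k2, -0.02 for Map2k1, -0.20 for Nras, -0.32 for Braf, -0.50 for Araf and -0.58 for Mapk3. These correlations are descriptions over libraries that share groups, lanes and depth.

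A list of 81 further genes of the pathway gives the surroundings of the 7 members. In RasLOW against BMEL WT, 73 of them were tested, 3 rose and 2 fell, or 6.85% against 5.96% of all genes. The small GTPase Rap1b rose from 239 to 2170 CPM (log2 fold change 3.15, SE 0.21, edgeR adjusted p = 0.00218). The ribosomal S6 kinases Rps6ka2 and Rps6ka3, which Erk phosphorylates, rose by 2.29 and 1 (edgeR adjusted p = 0.00218 and 0.00974). Map3k8, a kinase that acts on Mek, fell by 2.51 and Ksr1, a scaffold for Raf and Mek, fell by 1.70 on the log2 scale (edgeR adjusted p = 0.035 and 0.0135). Map3k8 was low throughout, with means of 1.01 CPM in BMEL WT and 0.177 CPM in RasLOW, the latter near the limit that a count of 0 allows.

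In RasHIGH against BMEL WT, 16 of the 73 tested genes rose and 9 fell, or 34.2% against 22.6% of all genes. The genes with the largest rises were Rap1b (3.95), Rps6ka2 (3.30) and Rgl1 (1.92), which encodes an exchange factor for Ral GTPases. Those with the largest falls were Rasgrp3 (-3.76), an exchange factor for Ras, Rassf5 (-2.82), a Ras effector, and Gab1 (-2.51), an adaptor of receptor tyrosine kinases, with edgeR adjusted p = 0.00257, 0.0233 and 0.000977. Of 10 feedback inhibitors, Dusp7, Spred2 and Spred3 rose (0.75, 0.62 and 1.21, edgeR adjusted p = 0.0115, 0.0427 and 0.0444). Dusp6, a phosphatase of Erk, was at 536 CPM against 480 CPM (log2 fold change 0.12, SE 0.19, edgeR adjusted p = 0.701). In RasHIGH against RasLOW 0 of the 72 tested genes were called by edgeR.

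In liver against peritoneal tumour cells, the Ras-related GTPases Mras and Rras2 rose by 0.52 and 0.44 (edgeR adjusted p = 0.0225 and 0.0477), and they were the only 2 of 73 tested genes called, 2.74% against 3.2% of all genes. In stroma 24 of 81 rose in the liver and 11 fell, or 43.2% against 33.4%. The GTPase-activating protein gene Rasal1 (1.63), the exchange factor gene Rasgrf1 (1.5) and the scaffold gene Ksr2 (1.42) rose most, and the feedback inhibitor gene Spry1 (-1.83) and Rerg (-1.59) were among those that fell.

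Between tumour cells and stroma, 36 of 81 listed genes rose and 36 fell in the liver, and 31 rose and 33 fell in the peritoneum, or 88.9% and 79% against 77.8% and 76.6% of all genes. Rap1b, Rin1 and Rps6ka2 rose most at both sites (2.40, 2.28 and 2.23 in the liver; 2.92, 2.97 and 3 in the peritoneum). Rasgrp1, an exchange factor known from lymphocytes, had log2 fold changes of -8.53 in the liver and -6.71 in the peritoneum. Rasgrp4 (-8.19) and Rasal3 (-7.95) fell most after it in the liver, and Rassf5 (-6.58) and Rasal3 (-6.51) in the peritoneum. The leukocyte marker sum moved with these genes, at 24.1 to 30.0 CPM in liver tumour cells and 3610 to 4170 CPM in liver stroma, and its part in them was not tested. Of the 10 feedback inhibitors, 9 rose in liver tumour cells, and 8 rose and 1 (Spry1) fell in peritoneal tumour cells. Among them, Spry4 rose by 1.5 and 1.7 and Dusp6 by 0.67 and 1.42, with edgeR adjusted p = 1.95e-07 and 3.69e-06 for Spry4 and 0.000241 and 4.8e-05 for Dusp6.

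**Figure D4:**
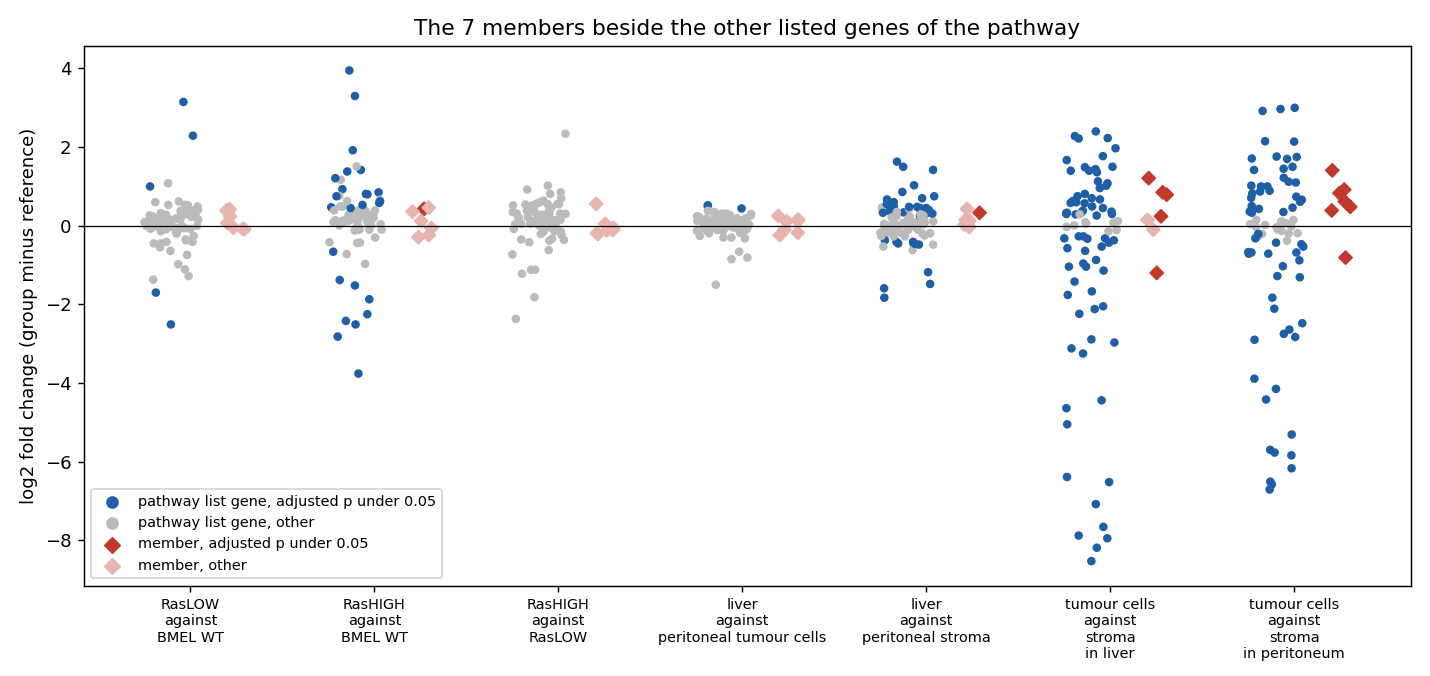
Log2 fold change (y axis, group minus reference) of the listed pathway genes that were tested (circles) and of the 7 members (diamonds) in the 7 comparisons; dark colours mark an adjusted p under 0.05. The members stay between -1.20 and 1.41 in all comparisons, while listed genes reach 3.95 in RasHIGH against BMEL WT and -8.53 in tumour cells against stroma in the liver.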

How the data were processed

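RNA was sequenced from 25 libraries in 7 groups, named by the sample titles. The authors prepared mRNA libraries and, per their methods, aligned reads to mm9 with TopHat2. The submitters' processing notes also list FastQC, Bowtie 0.12.2 and the builds mm8 and mm10, without their role. The deposited values are raw counts of reads per gene, not normalized. The counter, strand setting and annotation were not given in the sources used here.

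CPM were computed with TMM factors over all 25 libraries. Each comparison was fitted on the counts of its 2 groups in R 4.3.3 with edgeR 4.0.16 (filterByExpr with a minimum count of 10, TMM, quasi-likelihood test, Benjamini-Hochberg adjustment over all genes tested, threshold 0.05), two-sided. DESeq2 1.42.0 (0.05) and other settings were alternatives. The fit was tested on simulated data. The study's thresholds for cell lines were a log2 change of more than 1.5 either way and p under 0.01; its text does not say whether p was adjusted, while a supplementary table lists adjusted p, and unadjusted p was used here for both sets of thresholds. Errors are SDs over cultures or mice. The paper's methods call the samples biologically independent but do not say whether the cultures were separate derivations, so p-values measure the spread between these samples. Lane was taken from the labels.

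The 7 members, the pathway list, the cell type markers and the tests were chosen with earlier results of these data known. All members were named, and of the list up to 3 called genes each way per comparison with the largest change, 1 of which is not reported here; single feedback inhibitors, and Epcam, the keratins and Cdh5 among the markers, were chosen after their values were seen. Genes like Hras were the 5 with the highest Pearson's r of log2(CPM + 1), among genes with a mean of at least 1 CPM. Endothelial markers summed to 52.8 to 234 CPM in tumour cells and 330 to 799 CPM in stroma. In tumour cells this sum was mostly Cdh5 (mean 125 CPM in the liver and 139 CPM in the peritoneum), which was also at 8.49 CPM in RasHIGH cultures, while Pecam1, Kdr and Tek were at 0.215 to 6.51 CPM on average per site. Hepatocyte markers summed to 0.476 to 212 CPM over all libraries. Samples with the same mouse number come from 1 animal, and their deviations from group means correlated by -0.04 to 0.22 on average per comparison. Sequence, positions and transcript lengths were read from the mm9 reference (NCBIM37) with its GENCODE annotation, coding identity came from a global alignment in Biopython 1.88, copies elsewhere in the genome from BLAST 2.17.0, and RPKM divided mean CPM by transcript length.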

Additional observations from a re-analysis of the deposited data

Results flagged for a closer look

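Mapk3 in peritoneal tumour cells of mouse 3 was at 221 CPM, apart from 234, 235 and 235 CPM in the other 3 mice, by Dixon's ratio of gap to range (0.929, above its 95% critical value). It was the only 1 of 28 groups of 4 that stood out, and chance gives about 1 in 20.

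The difference of Araf between liver and peritoneum was not the same in tumour cells as in stroma. In tumour cells Araf had a mean of 60.2 CPM in the liver and 71.1 CPM in the peritoneum, and in stroma 65.1 and 58 CPM. The difference of the 2 site effects, tested as an interaction by edgeR's quasi-likelihood test in all 16 sorted libraries, was a log2 value of -0.45 (SE 0.1, adjusted p = 0.00677), and 14.3% of the 15331 genes tested had such a difference. With mouse as a replicate block it was -0.44 (edgeR adjusted p = 0.00807), and without single libraries it was -0.47 to -0.32. These settings were chosen after seeing the data. Neither site effect of Araf passed the test on its own. The other 6 members were not called, although Mapk3 was with library size alone (-0.42, edgeR adjusted p = 0.0207).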

How the results depend on the processing

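Directions and calls of tumour cells against stroma were kept for Hras, Nras, Map2k1 and Braf at both sites under all 15 alternatives. With all 25 libraries in 1 fit, 2 members (Nras and Map2k1) were called in RasLOW against BMEL WT, 3 (with Mapk3) in RasHIGH against BMEL WT, 1 (Mapk3, edgeR adjusted p = 0.014) in RasHIGH against RasLOW and 2 (Braf and Map2k1) in liver against peritoneal stroma, where Hras was at 0.01. That fit called 2441, 4347, 917 and 3737 of the 15757 genes tested in these comparisons. The fits of 2 groups called 734 of 12307, 2789 of 12331, 9 of 11962 and 4925 of 14755 genes. In RasHIGH against BMEL WT, 0 members were called with library size alone, no filter on low counts, lane as a term or the study's thresholds. In that order, 2688 of 12331, 2783 of 17926, 545 of 12331 and 1190 of 12331 genes were called. The study's thresholds left 0 members in stroma by site and 2 and 1 in tumour cells against stroma in liver and peritoneum. Library size alone called 5 members (all but Hras and Map2k2) in stroma by site, turned the Hras value there to 0.08 and its site effect in tumour cells minus stroma to -0.02. It moved the median of all genes in that stroma comparison from 0.02 to 0.13, and the genes called as higher from 2202 of 4925 to 3552 of 5742. With lane as a term, Hras, Araf and Braf in RasLOW against BMEL WT were 0.10, 0.06 and -0.01, and Hras in stroma by site 0.01. The cause of these shifts was not tested.

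The replicate block left 0 members called in RasHIGH against BMEL WT (Nras 0.43, adjusted p = 0.0704) and changed no other call of a member. In cultures same-numbered samples correlated by -0.68 to 0.34, so the replicate numbers mark no pairing there, whereas in the mice they mark the animal. The sample codes in the titles run in sequence for RasHIGH replicate 1 and RasLOW replicate 2, and for RasHIGH replicate 2 and RasLOW replicate 3. Hras was at 50.0 and 46.7 CPM in the former and at 79.5 and 86.1 CPM in the latter. Whether these cultures were prepared together was not given, and no fit paired them.

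Leaving out 1 library gave 0 to 1 members called in RasLOW against BMEL WT, 0 to 2 in RasHIGH against BMEL WT, 0 in RasHIGH against RasLOW and in tumour cells by site, 1 to 2 in stroma by site, 4 to 5 in tumour cells against stroma in the liver and 7 in the peritoneum. Over all genes, the culture fits called 148 to 2340, 1517 to 3896 and 0 to 16 in that order. The fits by site called 41 to 884 genes in tumour cells and 3976 to 4872 in stroma. Those of tumour cells against stroma called 11099 to 11353 in the liver and 10691 to 11070 in the peritoneum. Signs turned for Hras (-0.29 to 0.18), Araf (-0.19 to 0.06), Braf (-0.10 to 0.20) and Mapk3 (-0.18 to 0.00) in RasLOW against BMEL WT, and for Braf (-0.30 to 0.10) in RasHIGH against BMEL WT. They turned for Hras (-0.47 to 0.01), Nras (-0.02 to 0.11), Braf (-0.37 to 0.05), Map2k1 (-0.15 to 0.08) and Map2k2 (-0.21 to 0.06) in RasHIGH against RasLOW. In stroma by site they turned for Hras (-0.10 to 0.01) and Map2k2 (-0.06 to 0.14), and in the site effect of tumour cells minus stroma for Nras (-0.12 to 0.03). With 3 cultures per group, the 95% intervals of the cell line fold changes, up to -0.94 to 0.52 for Hras, set what could be detected.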
